A study of Mus musculus with 41 samples.

Results

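The 42 genes described here are Wnt ligands, their receptors and co-receptors, secreted modulators, and genes known as feedback or target genes of the pathway. They were chosen by name, as 19 Wnt genes, 10 Frizzled genes, the co-receptors Lrp5 and Lrp6, 7 secreted modulators (Sfrp1, Sfrp2, Sfrp4, Dkk1, Dkk2, Dkk3 and Wif1), and Axin2, Nkd1, Lef1 and Tcf7. All 42 were among the 30175 gene names on the arrays, and 37 of them were among the 24505 genes that passed the filter on low signals. A gene's value is that of its brightest probe, by mean signal over the arrays.

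The values come from 41 tumors that arose in Trp53-null BALB/c mammary duct fragments from several donors, transplanted into the cleared fat pads of wild-type female BALB/c mice. All tumors share the loss of Trp53 in the transplanted tissue, whereas stroma, vessels and immune cells can come from the wild-type host, and whole tumors were profiled, so fewer cells of a type and less RNA per cell cannot be told apart. Recipients ate a low-fat diet throughout (LFD), a diet high in animal fat throughout (HFD), the high-fat diet in puberty only (HFD-LFD) or in adulthood only (LFD-HFD). The 29 epithelial tumors comprised 8 LFD, 8 HFD, 7 HFD-LFD and 6 LFD-HFD tumors, of which 14 were of early and 15 of late onset, and the 12 spindle cell tumors comprised 3 of each regimen, with 3 early and 9 late. Each tumor's RNA was hybridized on a two-color array with the Universal Mouse Reference, which pools RNA of mouse cell lines, and every value below is a log2 ratio of tumor over reference unless a difference is named.

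Wnt proteins are secreted ligands that bind Frizzled receptors together with Lrp5 or Lrp6. In the canonical branch this stabilizes beta-catenin, which joins the factors Lef1 and Tcf7 on target genes, among them Axin2 and Nkd1, whose products dampen the signal again. In the mammary gland the pathway is known for its part in ductal growth and in the basal stem and progenitor cells, and Wnt1 was found as an integration site of the mouse mammary tumor virus.

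All 41 arrays carried signal well above background for Trp53 in the tumor channel, and its ratio lay between -2.25 and 3.74 for epithelial tumors and between 0.08 and 1.95 for spindle cell tumors. The part of the gene that the null allele lacks is not given in the sources used here, so this probe does not check the genotype. In the tumor channel, 52.4% to 94.9% of spots were well above background for epithelial tumors and 59.1% to 72.7% for spindle cell tumors. The labels place the tumor in Cy5 and the methods place it in Cy3, and the Y-linked genes Ddx3y and Eif2s3y, which female tumors lack, were below 0 as Cy5 over Cy3 on all 41 arrays, so Cy5 was taken as tumor, as the labels have it. The 12 spindle cell arrays were scanned in a session of their own on another scanner and read with another version of the scanner software, so the histologies and the scan sessions cannot be told apart. Epithelial tumors lay on 8 slides, and 7 of these carried a single regimen. For 3 HFD tumors (40R4A, 57R and 65R) the deposited matrix carries other labels than the scanner files, whose labels were used.

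The 30-base stretches of promoter below show where the binding core of Lef1 and Tcf7 occurs before a start of a described gene. CTTTGAA and CTTTGAT were searched on both strands of the 250 bases before each RefSeq start of GRCm38.p6. Of the 29 described genes with an entry, 3 held a match (10.3%), against 8.63% of 27025 genes with an entry. Capitals mark the match, which on the Wnt11 line reads on the reverse strand.
Wnt5b, chr6:119449439-119449468, minus strand: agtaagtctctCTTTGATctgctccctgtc
Wnt11, chr7:98835050-98835079, plus strand: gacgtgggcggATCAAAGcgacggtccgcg
Dkk1, chr19:30549595-30549624, minus strand: tcctcccaaagCTTTGAAatcccatcccgg
The Wnt5b match stands before 1 of 3 listed starts and the Wnt11 match before 1 of 2. The windows of Axin2, Nkd1, Lef1 and Tcf7 hold neither sequence.

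The described genes varied widely between tumors of the same histology. Over the epithelial tumors the SD of the log2 ratio ranged from 0.304 for Wnt1 to 2.86 for Wif1, with a median of 1.08 over the 37 genes, against a median of 0.596 over all genes tested. The SD was over 1 in 20 of the 37, and in 14.7% of all genes tested. Some of these 20 were dim, and their spread depends on the background correction. Wnt2, well above background in 7 of 29 epithelial tumors, ran from -3.50 to 0.39, but from -0.83 to 0.06 with normexp and loess. Wnt9b, well above background in 13 of 29, ran from -3.05 to 1.45, but from -0.66 to 0.82 with normexp and loess. How many genes have an SD over 1 with that correction was not counted. Wif1, a secreted inhibitor that binds Wnt ligands, spanned from -7.55 in tumor 42L4B to 3.20 in tumor 56R, with a median of -2.81 (n = 28). The low end depends on the background correction: with normexp and loess tumor 42L4B was at -3.14, the range was -5.04 to 3.003 and the SD 2.34, and Wif1 was not well above background in 2 of the 29 tumors, 1 of them 82L. Wnt6 spanned from -4.61 to 2.17 with a median of -1.90 (n = 29). Wif1 was brighter in the tumor than in the reference in 7 of 28 epithelial tumors and in 1 of 12 spindle cell tumors.

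Few genes kept to one side of the reference. Fzd7, a receptor studied in mammary progenitor cells, was above the reference in all 29 epithelial tumors, from 0.29 to 3.25, and in 10 of 12 spindle cell tumors. Fzd2 and Nkd1 were below the reference in all 28 epithelial tumors that gave them a value. Fzd6 and Wnt5b were above it in 28 of 29 and 27 of 28 epithelial tumors. Wnt1 and Lrp5 varied least, with a smaller SD in 7.70% and 8.68% of all tested genes, and lay above the reference in 27 of 29 epithelial tumors each.

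The 5 genes that did not pass the filter were the ligands Wnt2b, Wnt3, Wnt3a and Wnt8a and the inhibitor Dkk1. Wnt2b, Wnt3a and Dkk1 were well above background in 0 of 41 tumors, Wnt3 in 3 and Wnt8a in 6. Dkk1 was well above background in the reference channel on all 41 arrays. These genes enter no count below.

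**Figure D1:**
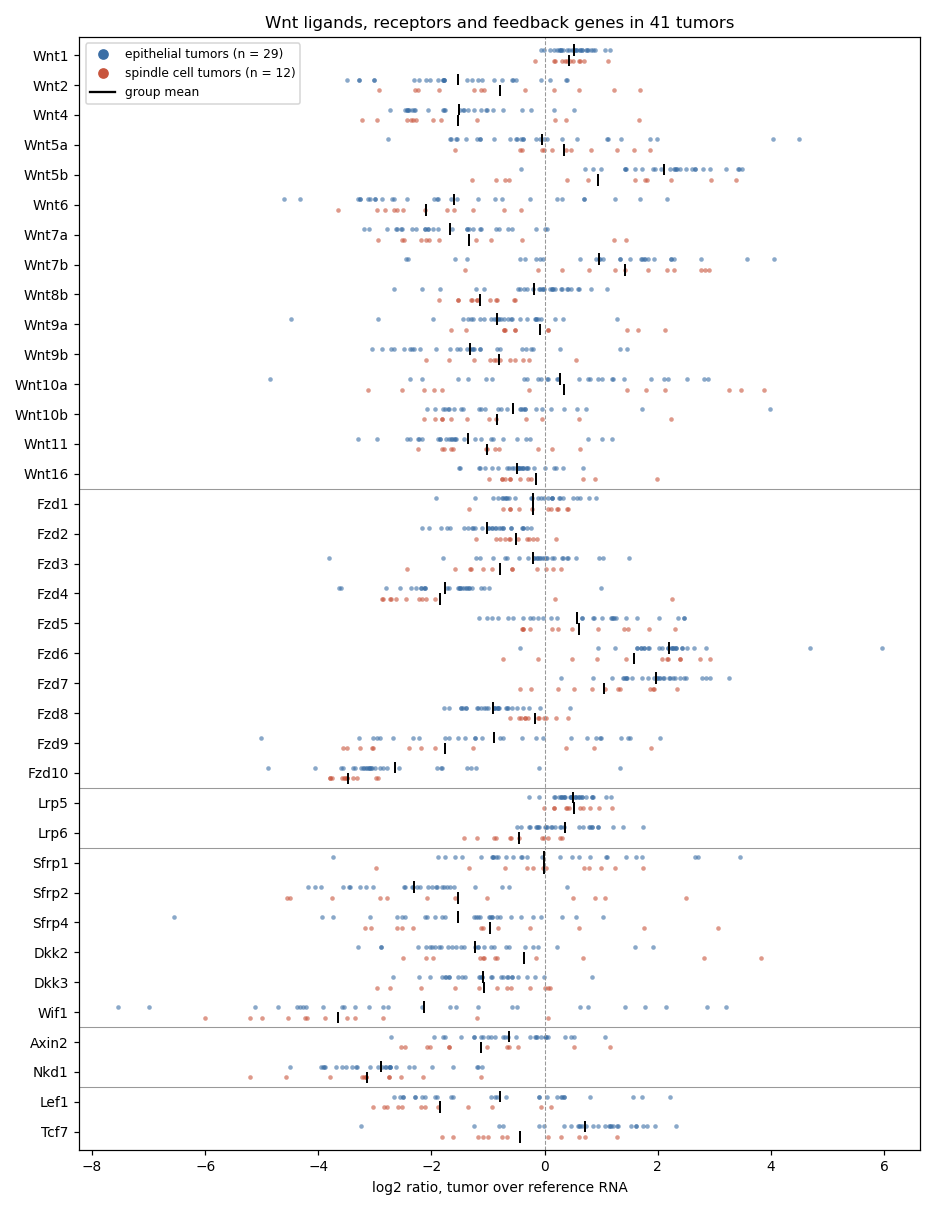
Log2 ratio of tumor over reference RNA (horizontal axis) of the 37 genes that passed the filter, 1 point per tumor, with epithelial tumors in blue, spindle cell tumors in red and a black tick at each group mean; lines separate ligands, Frizzled receptors, co-receptors, secreted modulators, Axin2 with Nkd1, and Lef1 with Tcf7. Wif1 spreads from -7.55 to 3.20 over the epithelial tumors (-5.04 to 3.003 with normexp and loess), whereas Wnt1 and Lrp5 stay close to their means.

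Spindle cell tumors were compared with epithelial tumors to ask whether the pathway's genes differ between the histologies. Of the 37 genes tested, the receptors Fzd2 and Fzd8 were higher in spindle cell tumors and the ligands Wnt5b and Wnt8b, the receptor Fzd7, the co-receptor Lrp6 and the transcription factor Tcf7 were lower, at an adjusted p under 0.05 (limma, Benjamini-Hochberg over 24505 genes). These 2 higher and 5 lower calls stand beside 8.14% higher and 13% lower over all genes tested, so the shares of called members were close to those of all genes. The median difference was -0.01 over the 37 genes and -0.09 over all genes. The groups overlapped for every one of the 37.

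Of the 15 ligands tested, 2 were lower and none was higher, with differences from -1.16 for Wnt5b to 0.76 for Wnt9a. Wnt5b, a ligand mostly assigned to beta-catenin-independent signaling (probe at chr6:119382550-119382609 of mm9), was -0.42 at the lowest, 2.30 at the median and 3.49 at the highest in epithelial tumors (n = 28) and -1.28, 1.18 and 3.39 in spindle cell tumors (n = 12). The spindle cell tumors thus covered nearly the same range with a lower center. The difference was -1.16 (standard error 0.38, adjusted p = 0.0251, limma), a 2.24-fold lower ratio, and the call was lost when slide entered as a random block (adjusted p = 0.0726) and without any 1 of 4 spindle cell tumors (adjusted p = 0.0631 without M129L, 0.0597 without M33R, 0.0707 without M63L and 0.0602 without M84R, limma). Wnt8b (probe at chr19:44588615-44588674) was not well above background in any of the 12 spindle cell tumors and was so in 9 of 29 epithelial tumors. Its means were -1.14 ± 0.41 (SD, n = 12) and -0.18 ± 0.87 (SD, n = 29, adjusted p = 0.00676, limma). The lowest level measurable in spindle cell tumors lies above the epithelial mean, so the distance between these means is no measured size. Its other probe had a difference of 0.38 (adjusted p = 0.282, limma). The call ended with normexp and loess (adjusted p = 0.419), with the mean over probes (adjusted p = 0.236) and in the authors' matrix (adjusted p = 0.193, all limma). The other 13 ligands did not pass.

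Of the 10 Frizzled receptors, 2 were higher and 1 was lower in spindle cell tumors. Fzd8 (probe at chr18:9214916-9214975) was -1.77, -0.89 and 0.45 at the lowest, median and highest in epithelial tumors (n = 29) and -0.61, -0.20 and 0.42 in spindle cell tumors (n = 12). Every spindle cell tumor lay above the epithelial median. The difference was 0.74 (standard error 0.15, adjusted p = 0.00051, limma), a 1.68-fold higher ratio. It passed under all 17 other settings and without each single tumor. After the arrays were brought to one distribution, the tumor channel of Fzd8 differed by 0.38 and the reference channel by -0.36. The higher ratio thus went with both a brighter tumor signal and a dimmer reference. Fzd2 (probe at chr11:102467613-102467672) was -2.17, -0.93 and -0.24 in epithelial tumors (n = 28) and -1.22, -0.54 and 0.19 in spindle cell tumors (n = 12). The difference was 0.52 (standard error 0.17, adjusted p = 0.0236, limma), and its other, dimmer probe, well above background in 15 of 29 epithelial and 11 of 12 spindle cell tumors, differed by 1.29 (adjusted p = 0.000217, limma over probes). Between arrays brought to one distribution, the tumor channel of Fzd2 differed by -0.09 and the reference channel by -0.64, so the higher ratio went with a dimmer reference. The call was lost when slide was a random block (adjusted p = 0.0582), in late tumors only (0.41, adjusted p = 0.188, limma) and without the early HFD-LFD spindle cell tumor M129L (adjusted p = 0.0566, limma).

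Fzd7 (probe at chr1:59543192-59543251) was 0.29, 2.02 and 3.25 at the lowest, median and highest in epithelial tumors (n = 29) and -0.43, 1.18 and 2.34 in spindle cell tumors (n = 12). The difference was -0.91 (standard error 0.24, adjusted p = 0.00645, limma), a 1.87-fold lower ratio. In separate channels the tumor signal of Fzd7 differed by -0.31 and the reference signal by 0.60. Its dimmer probe differed by -0.57 (adjusted p = 0.0613, limma over probes), and in late tumors only the call was lost (-0.86, adjusted p = 0.0689, limma). The other 7 receptors lay between -0.86 for Fzd9 and 0.04 for Fzd5, and Fzd10 was at -3.47 ± 0.28 (SD, n = 12) in spindle cell tumors and -2.64 ± 1.23 (SD, n = 29) in epithelial ones (adjusted p = 0.086, limma). Of all 41 tumors 1, an epithelial one, had Fzd10 above the reference, at 1.34.

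Lrp6, the co-receptor whose phosphorylation starts the canonical signal, had probes that disagreed. On the brighter probe (chr6:134400440-134400499) it was -0.48, 0.22 and 1.75 at the lowest, median and highest in epithelial tumors (n = 28) and -1.42, -0.53 and 0.30 in spindle cell tumors (n = 12). The difference was -0.82 (standard error 0.20, adjusted p = 0.00255, limma), a 1.76-fold lower ratio. On the other probe the difference was 0.28 (standard error 0.20, adjusted p = 0.337, limma over probes), both probes were well above background in all 41 tumors, and over these tumors they correlated with an r of 0.306. The mean over probes had a difference of -0.30 (adjusted p = 0.273, limma). Lrp5 had 0.03 (standard error 0.12, adjusted p = 0.881, limma).

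None of the 6 secreted modulators tested passed. Their differences ran from -1.53 for Wif1 (standard error 0.85, adjusted p = 0.202, limma) to 0.86 for Dkk2 (standard error 0.47, adjusted p = 0.198, limma). Sfrp2 varied more in spindle cell tumors, from -4.55 to 2.50, than in epithelial tumors, from -4.18 to 0.39, and the difference in spread was not tested.

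Of the feedback and target genes, Tcf7 was called lower in spindle cell tumors and Axin2, Nkd1 and Lef1 were not called. Tcf7 (probe at chr11:52066114-52066173) was -3.25, 0.95 and 2.33 at the lowest, median and highest in epithelial tumors (n = 29) and -1.81, -0.71 and 1.29 in spindle cell tumors (n = 12). The lowest value of all belonged to the epithelial tumor 13L. The difference was -1.14 (standard error 0.36, adjusted p = 0.0216, limma), a 2.21-fold lower ratio, and it did not pass with the mean over probes (adjusted p = 0.0891), without M32L, M76R and M86R (adjusted p = 0.0719), with a random slide effect (adjusted p = 0.0551) or in late tumors only (-0.77, adjusted p = 0.328, all limma). Its other probe, with an r of 0.824 to the brighter one, differed by -0.35 (adjusted p = 0.423, limma over probes).

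Lef1 (chr3:130926200-130926259) had a median of -0.85 in epithelial tumors, between -2.66 and 2.21 (n = 28), and of -2.15 in spindle cell tumors, between -3.04 and 0.12 (n = 12). Its difference was -1.07 (standard error 0.45, adjusted p = 0.0824, limma), and passed without the HFD-LFD tumor M128L (-1.25, adjusted p = 0.0432, limma), and its probes followed each other with an r of 0.977. Axin2 (chr11:108803927-108803986) was dim, well above background in 14 of 29 epithelial and 2 of 12 spindle cell tumors, with medians of -0.65 and -1.35. As for Wnt8b, the lowest level measurable in the spindle cell tumors lies above the epithelial mean, so the sizes given here rest on signals near background. Its difference was -0.51 (standard error 0.32, adjusted p = 0.257, limma) and turned to 0.02 with normexp and loess. Without the spindle cell tumors M32L, M76R and M86R it was -0.89 and passed (adjusted p = 0.0437, limma). Nkd1 (chr8:91116160-91116219) had medians of -2.85 and -3.16 and a difference of -0.24 (standard error 0.32, adjusted p = 0.621, limma), and its other probe one of -0.88 (adjusted p = 0.0496, limma over probes).

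**Figure D2:**
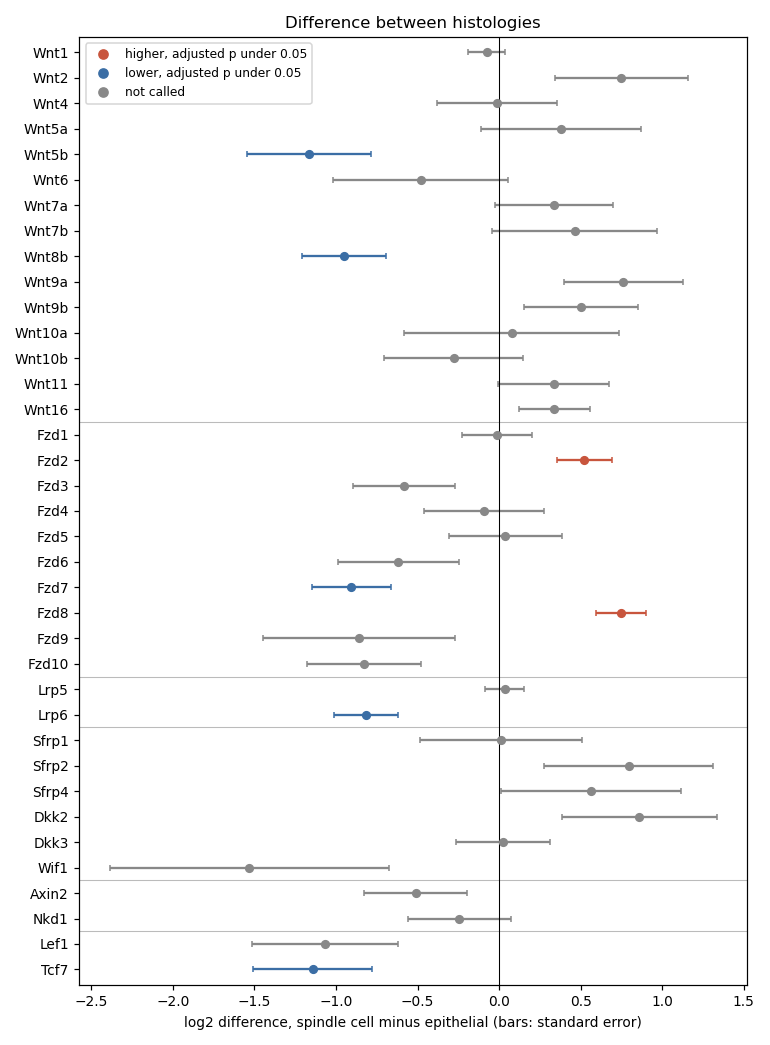
Log2 difference of spindle cell minus epithelial tumors (horizontal axis) with its standard error for the 37 genes, colored where the adjusted p was under 0.05. The 2 genes called higher are Fzd2 and Fzd8, the 5 called lower are Wnt5b, Wnt8b, Fzd7, Lrp6 and Tcf7, and Wif1 has the widest error. Wnt8b was not well above background in any spindle cell tumor, so its plotted difference is no measured size.

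Among 56 other genes of the pathway that were tested, 7 were higher and 9 lower in spindle cell tumors, with a median difference of -0.15. The called ones of largest difference were Prickle2, of the planar polarity branch, with a difference of 2.11 (standard error 0.26, adjusted p = 5.5e-08), Kremen2, a Dickkopf receptor, with -1.70 (standard error 0.50, adjusted p = 0.0131), Celsr1, a planar polarity cadherin, with -1.62 (standard error 0.44, adjusted p = 0.00765), and Lgr6, an R-spondin receptor, with -1.45 (standard error 0.52, adjusted p = 0.0432, all limma). Markers of other cell types moved with the histology as well. Of 11 mesenchymal markers 6 were higher in spindle cell tumors and none lower, and the log2 of their summed tumor signal was 17.1 to 19.2 in spindle cell and 16.8 to 18.99 in epithelial tumors, with medians of 18.6 and 17.7. Of 4 endothelial markers 2 were higher (11.97 to 13.7 against 10.4 to 12.7), and of 8 luminal and 4 basal markers none passed. All 8 luminal markers had differences below 0, from -1.06 for Krt19 to -0.35 for Krt8 with a median of -0.73, and the median of their summed signal was 17.7 in spindle cell and 18.65 in epithelial tumors. No marker of these lists was below background throughout, and the part of these cells in the differences above was not tested.

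The regimens were compared among epithelial tumors to ask whether diet, in puberty or in adulthood, goes with the level of these genes. No gene of the 37 passed limma's F-test over the 4 regimens, with the adjusted p set at 0.10, where 0.380% of all genes did, and 1 gene, Lrp6, had an unadjusted p under 0.05, against 12.3% of all genes. Over the 6 pairs of regimens there was 1 call, Lrp6 in HFD-LFD against LFD, where 0.902% of all genes were called. No member was called in HFD against LFD (0.00408% of all genes), LFD-HFD against LFD (0.00%), HFD-LFD against HFD (0.0204%), LFD-HFD against HFD (0.196%) or LFD-HFD against HFD-LFD (0.00%). The pairs share their groups.

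On its brighter probe Lrp6 was between -0.48 and 0.61 in LFD tumors, with a median of -0.04 (n = 8), and between 0.18 and 1.75 in HFD-LFD tumors, with a median of 0.84 (n = 7). It was between -0.41 and 0.78 in HFD (n = 7) and between -0.13 and 1.20 in LFD-HFD tumors (n = 6). Thus 6 of the 7 HFD-LFD tumors lay above all LFD tumors. The difference of HFD-LFD against LFD was 0.93 (standard error 0.24, adjusted p = 0.0874, limma), 1.90-fold. On the other probe the means were 0.48 ± 0.29 (SD, n = 7) and -0.08 ± 0.37 (SD, n = 8), a difference of 0.56 (adjusted p = 0.419, limma over probes). The HFD-LFD tumors lay on 2 slides and no slide held tumors of both regimens; with slide as a random block the difference was 0.91 and did not pass (adjusted p = 0.344, limma). Leaving out any 1 of 12 epithelial tumors, 6 HFD-LFD, 5 LFD and the LFD-HFD tumor 92R, also ended the call. Over all 29 omissions the adjusted p was between 0.0523 and 0.17 (limma). In each of the HFD-LFD and LFD groups 1 pair of tumors shares a label number and may come from 1 mouse. With 1 tumor per shared label number the difference was 0.93 and did not pass (adjusted p = 0.194, limma).

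**Figure D3:**
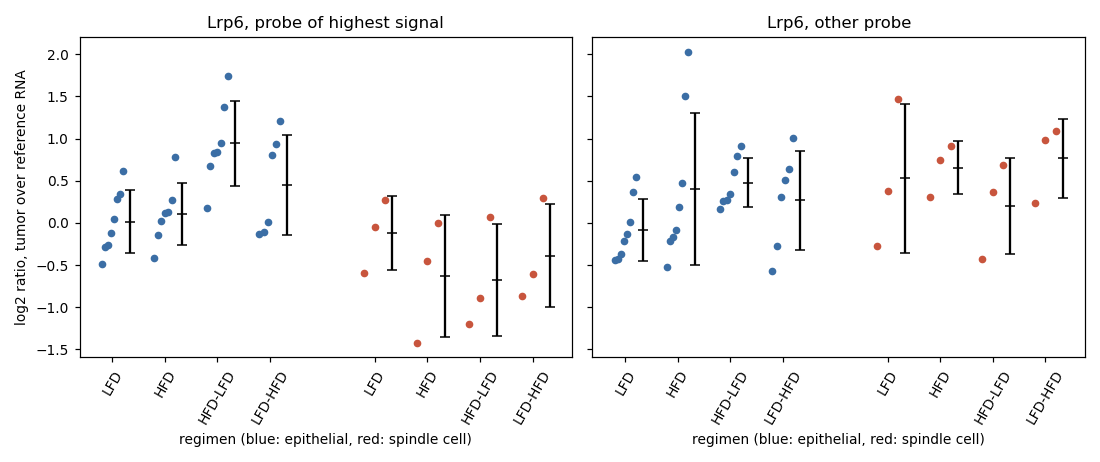
Log2 ratio of Lrp6 on its brighter probe (left) and its other probe (right) by regimen, 1 point per tumor with mean and SD in black, epithelial tumors in blue and spindle cell tumors in red. On the brighter probe 6 of the 7 HFD-LFD epithelial tumors lie above all 8 LFD ones, and the spindle cell tumors lie below epithelial ones by 0.82 on average, whereas on the other probe they lie above them by 0.28.

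Among the 12 spindle cell tumors limma's F-test over the regimens called no member (0.00% of all genes), and none had an unadjusted p under 0.05, against 4.07% of all genes. Some ranges of 3 tumors did not overlap: Lef1 was between -1.36 and -0.06 in HFD, between -2.85 and -2.52 in LFD and between -2.58 and -2.11 in LFD-HFD tumors. With normexp and loess Lef1 was -1.74 in the HFD tumor M63L and -1.545 in the LFD-HFD tumor M86R, so there the HFD and LFD-HFD ranges overlapped. Nkd1 was between -5.21 and -3.16 in HFD-LFD and between -2.75 and -2.53 in LFD tumors. On its other probe Nkd1 was between -4.18 and -2.65 in HFD-LFD and between -2.89 and -0.48 in LFD tumors, so there the ranges overlapped. Axin2, mostly not above background, was lower in all HFD and HFD-LFD than in all LFD-HFD tumors. These genes were named after their values were seen. The share of all genes with such ranges was not counted, so nothing is concluded from them. With 3 tumors per regimen only large differences could pass.

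Pubertal HFD, that is HFD and HFD-LFD together (21 tumors), was set against LFD and LFD-HFD (20 tumors). No member was called at an adjusted p under 0.10, where 0.0122% of all genes were, and 1 of 37 had an unadjusted p under 0.05, against 6.86% of all genes. That gene was Lef1, with medians of -0.85 after pubertal HFD (from -3.04 to 2.21, n = 20) and -2.15 without it (from -2.85 to 0.34, n = 20). Its difference was 1.04 (standard error 0.41, adjusted p = 0.651, limma) and stayed between 0.78 and 1.08 over 17 other settings, none of which called it. Tcf7 had a difference of 0.36 (standard error 0.36, adjusted p = 0.895), Axin2 one of -0.01 (standard error 0.30, adjusted p = 0.999) and Nkd1 one of -0.08 (standard error 0.29, adjusted p = 0.98, all limma).

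In early against late epithelial tumors no member was called at an adjusted p under 0.10, where 0.147% of all genes were. No slide held LFD tumors, or HFD-LFD tumors, of both onsets, so in these regimens onset and slide cannot be told apart. An unadjusted p under 0.05 was seen in 5 of 37, against 12.4% of all genes. Among them was Wif1, with a mean of -3.27 in early tumors, from -7.55 to 2.14 (n = 13), a mean of -1.13 ± 2.39 in late ones (SD, n = 15), and a difference of -2.14 (standard error 0.96, adjusted p = 0.364, limma). The lowest Wif1 values, in 42L4B and 82L, both belong to early tumors and move with the background correction, and with normexp and loess the means differed by -1.64. The other 4 were Wnt5b with a difference of -0.68, Sfrp4 with -1.05, Fzd6 with 0.77 and Fzd8 with 0.37, whose adjusted p lay between 0.371 and 0.401 (limma). The early tumors 42L4B and 60L were the 2 epithelial arrays of a smaller scan session. They had Wnt5b at -0.42 and 0.86, Sfrp4 at -3.94 and -6.55, Fzd6 at 4.69 and 5.96, and Fzd8 at -0.29 and 0.45. The part of the scan session in these differences was not tested. Lef1 differed by 0.85 (standard error 0.50, adjusted p = 0.499), Tcf7 by 0.60 (standard error 0.39, adjusted p = 0.547), Axin2 by -0.50 (standard error 0.30, adjusted p = 0.501) and Nkd1 by -0.13 (standard error 0.33, adjusted p = 0.915, all limma). The groups overlapped for all of them.

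The effect of pubertal HFD was also compared between the histologies. No member passed at an adjusted p under 0.10, where 0.408% of all genes did, and 7 of 37 had an unadjusted p under 0.05, against 12.1%. Sfrp2, a secreted Frizzled-related protein, came nearest. In spindle cell tumors it was between -4.55 and -1.59 after pubertal HFD (n = 6) and between -4.50 and 2.50 without it (n = 6), and in epithelial tumors between -3.96 and 0.39 (n = 14) and between -4.18 and -1.22 (n = 14). The effect in spindle cell minus that in epithelial tumors was -3.32 (standard error 0.90, adjusted p = 0.116, limma). Axin2 was well above background in 0 of the 6 spindle cell tumors with pubertal HFD and in 2 of the 6 without it, so no size is given for its difference of effects, which did not pass (adjusted p = 0.15, limma). With normexp and loess 6 members passed, Axin2, Nkd1, Fzd4, Sfrp2, Sfrp4 and Wnt7a, and without 42L4B, 60L and M86R 2 did, Sfrp2 and Sfrp4. Leaving out the spindle cell tumor M18L let Sfrp2 and Axin2 pass, and leaving out M86R, the LFD tumor 17R or the early HFD-LFD epithelial tumor with replicate number 3 let Sfrp2 pass. Of the 6 spindle cell tumors without pubertal HFD, 3 are M32L, M76R and M86R. Without them no member passed, as in the main fit, so leaving them out cannot show what they contribute. The mean of the adipocyte markers was 1.78 in M32L and 3.92 in M76R, against -4.52 to -2.61 in the other spindle cell tumors, and that of the lymphocyte markers was 2.24 in M86R and 1.57 in M76R, against -1.77 to 0.74. Sfrp2 was 2.50 in M32L, 0.89 in M76R and -1.02 in M86R, and it was also above the reference in M33R (1.07) and M84R (0.50). The part of these cells in the difference was not tested.

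**Figure D4:**
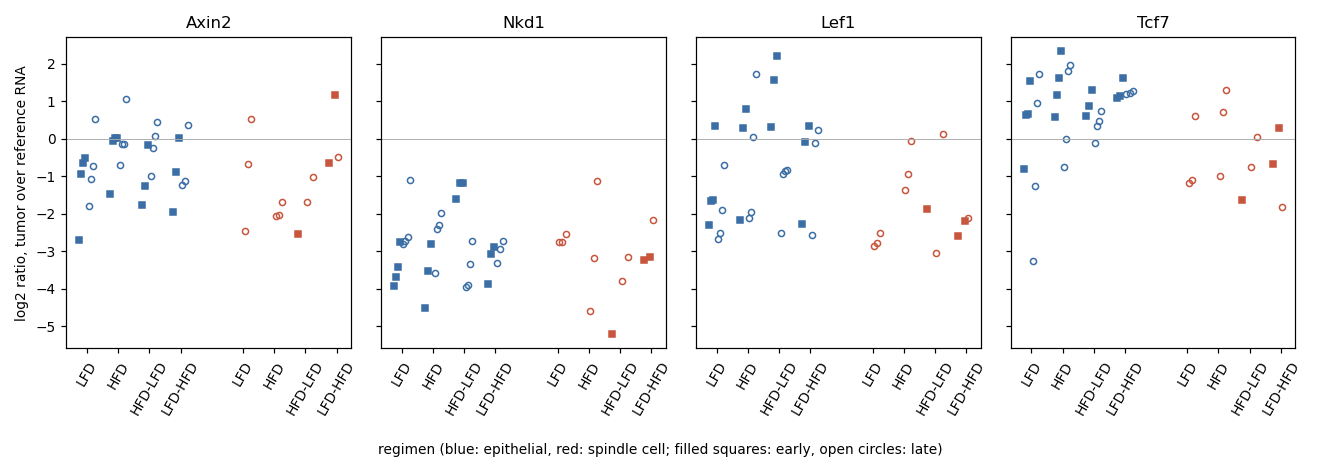
Log2 ratio of Axin2, Nkd1, Lef1 and Tcf7 by regimen, 1 point per tumor, epithelial tumors in blue and spindle cell tumors in red, filled squares for early and open circles for late onset. Among epithelial tumors the ranges of the regimens overlap for each gene, whereas the 3 HFD spindle cell tumors have Lef1 between -1.36 and -0.06, above the 3 LFD and 3 LFD-HFD ones at -2.85 to -2.11. With normexp and loess the HFD and LFD-HFD ranges of Lef1 in spindle cell tumors overlap. The share of all genes with such separate ranges was not counted.

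Whether the genes of the pathway vary together from tumor to tumor was examined in the 29 epithelial tumors. Axin2, the general feedback target, was set against each of the 36 other genes. By Pearson's r, from -0.445 to 0.543, no relation passed at an adjusted p under 0.05 (100000 permutations, two-sided, Benjamini-Hochberg over 36). The ligand Wnt10b came first, with r = 0.543 (p = 0.00271, adjusted p = 0.0976, permutation, n = 28) and a Spearman rho of 0.690 (p = 7e-05, adjusted p = 0.00252, permutation, n = 28). Its r was 0.527 without the 2 tumors farthest from the Axin2 median and 0.581 without the 2 arrays of the smaller scan session, and it passed after centering within slides (adjusted p = 0.0263, permutation, n = 28). With normexp and loess r was 0.379 and did not pass (adjusted p = 0.297), whereas rho was 0.706 (adjusted p = 0.00252, permutation, n = 28). Wnt10b was well above background in 21 and Axin2 in 14 of the 29 tumors. The Axin2 values of 0.52 in 11L and 0.36 in 71L came from arrays with 89.9% and 88.9% of spots well above background. The highest, 1.07 in 56R, came from an array with 70.6%. The part of array brightness in this relation was not tested. Tcf7 had r = 0.275 and rho = 0.383 (adjusted p = 0.538 and 0.377, permutation, n = 29).

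All 666 pairs of the 37 genes were then examined, a choice made after the Axin2 result was seen, and 5 pairs passed with both measures at an adjusted p under 0.05. Wnt6 and Wif1 rose and fell together, with r = 0.830 and rho = 0.836 (p = 1e-05 for both, the smallest that the permutations can give; adjusted p = 0.00666 and 0.00333, permutation, n = 28). The r was 0.796 without the 2 tumors of most extreme Wnt6, 0.809 without the smaller scan session, 0.788 within slides, 0.758 in early and 0.863 in late tumors, 0.872 with 1 tumor per shared label number and 0.812 with normexp and loess. In 4 of the 5 epithelial tumors of highest Wif1, Wnt6 was between 0.69 and 2.17, and in the other it was -1.89. In the 12 spindle cell tumors, which the choice of the pair did not use, r was 0.257 and rho 0.161 (p = 0.423 and 0.619, permutation, n = 12), so a relation was not detectable there.

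Wnt7b and Wif1 ran in opposite directions, with r = -0.640 and rho = -0.654 (adjusted p = 0.0225 and 0.028, permutation, n = 28). The r was -0.554 without the 2 tumors of most extreme Wnt7b and -0.742 within slides. In early tumors r was -0.685 and rho -0.484 (p = 0.0132 and 0.0973, permutation, n = 13), and r was -0.043 without the 2 of most extreme Wnt7b. In late tumors r was -0.665 and rho -0.707 (p = 0.00695 and 0.00425, permutation, n = 15). Sfrp2 and Dkk3, both secreted, rose and fell together, with r = 0.683 and rho = 0.768 (adjusted p = 0.0133 and 0.00333, permutation, n = 28), with r = 0.646 without the 2 tumors of most extreme Sfrp2 and 0.643 within slides. Wnt11 and Dkk2 had r = 0.610 and rho = 0.621 (adjusted p = 0.0422 and 0.0485, permutation, n = 29), with r = 0.471 without the 2 tumors of most extreme Wnt11. In early tumors their r was 0.683 and rho 0.785 (p = 0.00961 and 0.00142, permutation, n = 14). In late tumors r was 0.492 and rho 0.239 (p = 0.0671 and 0.389, permutation, n = 15), so a relation was not detectable there. The difference between the onsets was not tested. The receptors Fzd5 and Fzd10 had r = -0.625 and rho = -0.636 (adjusted p = 0.0147 and 0.0322, permutation, n = 29), with r = -0.599 without the 2 tumors of most extreme Fzd5, but the r was -0.346 with normexp and loess and did not pass (adjusted p = 0.431, permutation, n = 29). Of the 5 pairs 4 passed under both processings. None passed in the 12 spindle cell tumors (p from 0.196 to 0.747 for r, permutation, n = 12).

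These genes also varied with marker lists of cell types over the epithelial tumors, in 56 relations of 7 genes with 8 lists that were examined after the pairs were seen. Wnt6 followed the mean of the basal markers Krt5, Krt14, Krt17 and Trp63, with r = 0.621 and rho = 0.754 (adjusted p = 0.00518 and 0.000373, permutation, n = 28), and so did Wif1, with r = 0.562 and rho = 0.613 (adjusted p = 0.0236 and 0.0111, permutation, n = 28). Without the 2 tumors of most extreme Wnt6 or Wif1 these r were 0.620 and 0.529. Wnt7b had r = 0.655 with the luminal markers but a rho of 0.438 (adjusted p = 0.00187 and 0.115, permutation, n = 29), and r = 0.50 without the 2 tumors of most extreme Wnt7b. Wif1 ran against the luminal markers by r alone, with r = -0.525 and rho = -0.493 (adjusted p = 0.0332 and 0.0808, permutation, n = 28), and r = -0.591 without the 2 tumors of most extreme Wif1. Sfrp2 followed the basal markers by rho alone, with r = 0.458 and rho = 0.547 (adjusted p = 0.106 and 0.0337, permutation, n = 28), and r = 0.479 without the 2 tumors of most extreme Sfrp2. Sfrp2 and Dkk3 followed the mesenchymal markers, with r = 0.770 and 0.777 and rho = 0.752 and 0.737 (adjusted p = 0.00028 for both r and 0.000373 for both rho, permutation, n = 28), and with r = 0.661 and 0.770 without the 2 tumors of most extreme Sfrp2 or Dkk3. The part of the share of these cells in the relations between the genes was not tested.

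**Figure D5:**
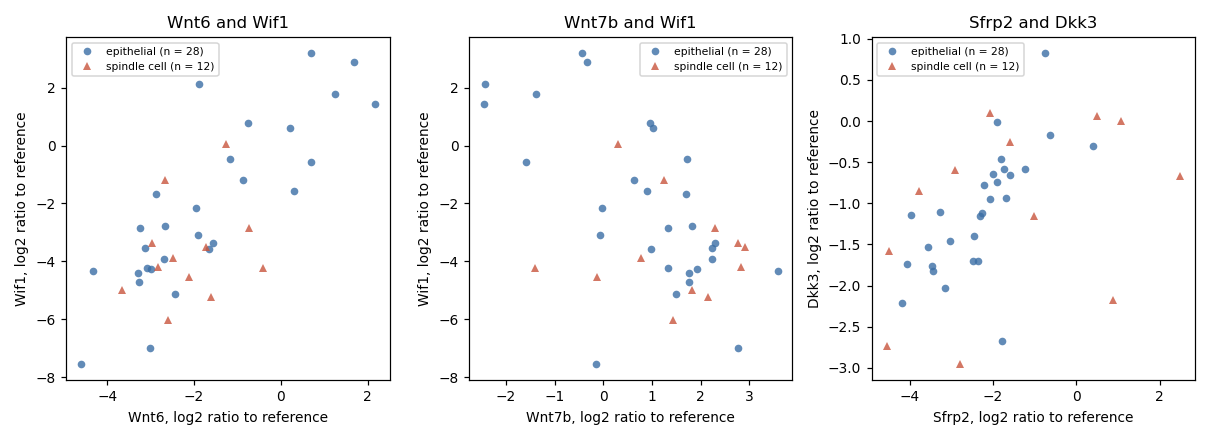
Log2 ratios of Wnt6 against Wif1, Wnt7b against Wif1, and Sfrp2 against Dkk3, 1 point per tumor, with epithelial tumors as blue circles (n = 28) and spindle cell tumors as red triangles (n = 12). In epithelial tumors Wif1 rises with Wnt6 (r = 0.830) and falls with Wnt7b (r = -0.640), and Dkk3 rises with Sfrp2 (r = 0.683).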

How the data were processed

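Labels gave each tumor's regimen, onset and histology, with variable morphology read as epithelial. The authors deposited the scanner software's output, with the intensity of each spot in both channels, and, in a matrix, log2 ratios after Lowess normalization, filtering and imputation. The files name Agilent Feature Extraction 11.0.1.1 (epithelial) and 10.5.1.1 (spindle cell), and the labels 8.5.1.1. Here the log2 ratio of the background-subtracted, dye-normalized processed signals was taken, outlier spots (up to 22% on an array) were left missing, and spots of a probe were averaged. Of 39429 probes, 32125 passed the filter, a mean signal above 10 for either dye on 80% or more of the arrays. Coordinates of probes are mm9. limma 3.58.1 in R 4.3.3 (lmFit, eBayes) was fitted over all genes with Benjamini-Hochberg adjustment, at 0.05 for histology and 0.10 otherwise. The SAM test of the methods was not run. Channels were compared after Aquantile scaling. Alternatives changed the background correction (normexp with an offset of 50 and loess), centering, filter, probes, moderation, threshold, covariates, slide and samples. Fits were tested on simulated data. The number of arrays limits the precision, and p-values measure the spread between tumors, of which 6 share a label number in pairs and may come from 3 mice. Full statistics are given for members called in a comparison and for Axin2, Lef1, Tcf7 and Nkd1, the rest by range and count, and up to 4 other pathway genes, the called ones of largest difference; other genes were named after their values were seen. The members, lists and tests were chosen with earlier results of these data known.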

Additional observations from a re-analysis of the deposited data

Results flagged for a closer look

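Of 40 groups of epithelial tumors of 1 regimen, for the 10 genes with full statistics, 4 held a tumor far from the rest, and chance flags about 1 in 20. Wnt8b was -1.85 in the LFD-HFD tumor 80L, against -0.10 to 0.61 in the other tumors of that regimen. Fzd2 was -2.17 in the HFD tumor 60L, against -1.01 to -0.38, on an array with 22% outlier spots. Tcf7 was 1.61 in the LFD-HFD tumor 92R, against 1.07 to 1.27, so that the gap is small. Nkd1 was -1.11 in the LFD tumor 13L, against -3.92 to -2.62, and the same tumor had the lowest Tcf7.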

How the results depend on the processing

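No paired analysis was possible because the labels give no replicate numbers (those used here only name tumors) and few tumors share a label number. Of the pairs that do, 1 joins an early and a late LFD epithelial tumor and 1 joins an epithelial and a spindle cell tumor. The remaining pair joins early HFD-LFD epithelial tumors. Of the members called between histologies, none changed direction under any setting, but no setting used the other probe alone. On that probe Lrp6 differed by 0.28 and Wnt8b by 0.38, opposite in direction to the brighter probe. Counts, 2 higher and 5 lower, were 4 higher without a filter (Wnt3a and Wnt8a added) and 2 lower with the mean over probes. They were 1 and 3 both with slide as a random block and in late tumors only. Leaving out 1 tumor gave 1 to 2 higher and 4 to 6 lower. Wnt5b lost its call without M129L, M84R, M63L or M33R. The regimen pairs, with 1 call, gave 0 with the mean over probes, with outlier spots kept, with 1 tumor per shared number, without 40R4A, 57R and 65R, with slide as a random block and at 0.05, 2 from the authors' matrix, and 0 to 1 without 1 tumor. From the matrix the regimens gave 1, Dkk1, which no tumor shows above background. The difference of diet effects between histologies, with 0 calls, gave 6 with normexp and loess, 1 from the matrix (Axin2), 2 without 42L4B, 60L and M86R, and 0 to 2 without 1 tumor. Axin2 relations, with 0, gave 1 by Spearman's rho, 3 within slides (Fzd5, Wnt10b and Wnt8b) and 1 with normexp and loess (Wnt8b, not Wnt10b). Counts for the pubertal, onset and spindle cell regimen comparisons were 0 under every setting run. Directions turned for genes not called: Axin2 between histologies to 0.023 with normexp and loess and 0.163 from the matrix; Nkd1 by onset to 0.094 under the matrix labels and 0.003 without 42L4B, 60L and M86R; Axin2 by pubertal diet to 0.003 without the latter, 0.12 without M32L, M76R and M86R and 0.55 in epithelial tumors; and Nkd1 by pubertal diet to 0.057 with normexp and loess, 0.21 with the mean over probes and 0.20 in epithelial tumors. Without 1 tumor, Nkd1 by onset ran from -0.274 to 0.003, and by pubertal diet Axin2 from -0.116 to 0.087 and Nkd1 from -0.18 to 0.035. Of 1040 values of single members, 973 kept call and direction. Pairs numbered 7 with normexp and loess. The normexp, single-group and marker relations were added after seeing the data. The causes were not tested. Dim probes limit Axin2 and Wnt8b.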
